A study of Mus musculus with 7 samples.

Results

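Connexins are the proteins of gap junctions, the channels that join the cytoplasm of neighbouring cells. A ring of connexins in each membrane docks with a ring of the next cell, and ions and small molecules pass through, so that the action potential of the heart spreads from cell to cell. Different connexins serve different places: Cx43 in the working ventricle, Cx40 in the atria, the His-Purkinje system and arterial endothelium, Cx45 and, in the mouse, Cx30.2 in the nodes, and Cx37 in arterial endothelium. This account covers 6 connexin genes, Gja1, Gja3, Gja4, Gja5, Gjc1 and Gjd3, taken by name as the cardiac and vascular members of the family, out of 37074 gene names on the array. They had 16 probes of the 56605 distinct non-control probes, and 11 of these 16 were well above background on at least 3 arrays and were tested.

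The arrays measured RNA from hearts of adult female mice, 4 labelled as Brg1 and Brm knockout (Mutant_175, Mutant_182, Mutant_187 and Mutant_188) and 3 labelled wild type (Wild Type_181, Wild Type_183, Wild Type_189). Brg1 and Brm are the alternative ATPases of SWI/SNF chromatin remodelling complexes. The knockout hearts came from Brm null mice carrying an MHC Cre-ERT transgene, in which tamoxifen removed Brg1, and the wild type hearts came from mice without the transgene that were also given tamoxifen. The labels do not say whether the wild type mice carried Brm, and the samples of the design beyond these 7 were not analysed here. The myosin heavy chain promoter drives Cre in cardiomyocytes. Brg1 is therefore removed from endothelial, smooth muscle and conducting tissue only as far as that tissue uses the promoter. The Brm null state is not limited by the promoter. The transgene, and Brm if the wild type mice carried it, also differ between the groups in every comparison below. Cardiomyocytes are the labelled cell type, but all 15 pan-endothelial markers, all 13 fibroblast markers and all 12 macrophage markers on the list had a tested probe, so RNA of other heart cell types was measured too. Nothing says that the samples are separate animals, and the p-values then measure the spread between these samples, which may be technical.

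Values are given as relative signal, the background-corrected probe signal divided by the 75th percentile of the same array, and differences as log2 fold change of knockout over wild type, with p-values from limma adjusted over all 34481 tested probes. The Smarca4 gene, which encodes Brg1, had a relative signal of 5.87, 10.3, 14.9 and 8.25 in Mutant_175, Mutant_182, Mutant_187 and Mutant_188, against 32.8 to 34.7 in wild type, a log2 fold change of -1.87 (adjusted p = 0.0021, limma). The choice of scale matters here: measured against spike-in RNA instead, the median log2 fold change over all 22971 genes was 0.44, where it was -0.12 against the 75th percentile, a shift of 0.56. Each direction below is relative to the 75th percentile unless stated otherwise. Across both genotypes 3 arrays stood apart in atrial RNA: Myl7, the atrial myosin light chain, had a relative signal of 39.3 in Mutant_182, 59.2 in Mutant_187 and 37.6 in Wild Type_181, against 0.117 to 0.823 in the other 4 arrays. Myl4, another atrial light chain, and Sln, a regulator of the atrial calcium pump, split the arrays in the same way, and results that rest on these 3 arrays are also given without them, an alternative chosen after seeing the data.

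The connexins did not move as one family. Gja3 fell, Gja4 rose, and Gja1, Gja5, Gjc1 and Gjd3 did not pass the test. Counted by genes, each by its brightest probe, 1 of 6 members was called higher and 1 of 6 lower at an adjusted p under 0.05, where 41.5% of all genes tested were called, 16.1% higher and 25.4% lower. Counted by probes, 3 of 11 were called against 40.5% of all probes, and knockout and wild type arrays did not overlap for 4 of 11 against 49.7% of all probes. By genes they did not overlap for 3 of 6, Gja3, Gja4 and Gja5, against 51.2% of all genes. Neither share of calls was above that of the array. Summed over the 6 brightest probes, the relative signal was 14.1 to 16.9 in knockout arrays and 14.3 to 16.2 in wild type arrays, which overlap. The median log2 fold change of the 6 genes was 0.16, beside -0.12 over all genes.

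**Figure D1:**
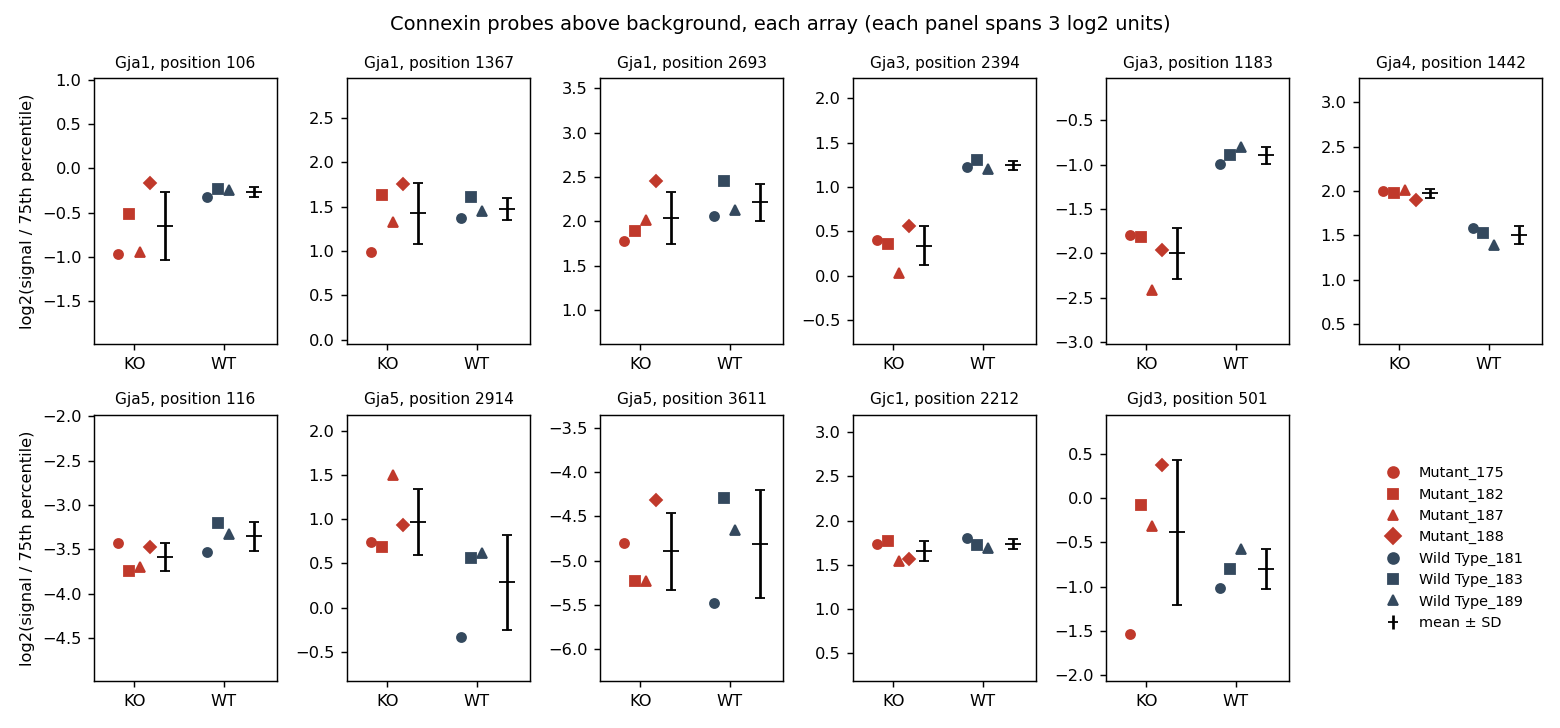
Log2 of the relative signal of the 11 tested connexin probes, one panel per probe named by gene and by the probe's first base in its transcript, with knockout arrays (red) left of wild type arrays (dark), a symbol for each array and bars for the mean ± SD. The arrays of each genotype separate for both Gja3 probes, for Gja4 and for the Gja5 probe at 2914, and Mutant_175 lies below all other arrays for Gjd3.

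Gja1 encodes Cx43, the main connexin of ventricular muscle, and its level did not differ between the groups by more than the spread between arrays. The brightest of its 8 probes (chr10:56109814-56109873 of mouse build mm9, starting at base 2693 of the transcript) had a relative signal of 3.44, 3.71, 4.03 and 5.49 in Mutant_175, Mutant_182, Mutant_187 and Mutant_188, against 4.18 in Wild Type_181, 5.48 in Wild Type_183 and 4.36 in Wild Type_189. The groups overlap, with Mutant_188 as high as the highest wild type array and the other knockout arrays below all of them. The log2 fold change was -0.18 (SE 0.19, 95% interval -0.62 to 0.27, adjusted p = 0.49, limma). For this probe and scaling, a fall by more than 0.62 or a rise by more than 0.27 on the log2 scale lies outside the interval. Against spike-in RNA the 95% interval of this probe was -0.05 to 0.81. A dimmer Gja1 probe, at 106, had -0.87 to 0.11 on the main scaling.

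Neither of the other tested Gja1 probes was called over all arrays. The probe at 1367 (chr10:56108488-56108978) had 1.99, 3.11, 2.5 and 3.38 in knockout, with arrays listed as before, against 2.58, 3.05 and 2.73 in wild type, and differed by -0.05 on the log2 scale (SE 0.2, adjusted p = 0.87, limma). The probe at 106, in the upstream end of the transcript (chr10:56097212-56097271), had 0.51, 0.702, 0.52 and 0.892 in the knockout arrays against 0.797, 0.852 and 0.845 in wild type. Its log2 fold change of -0.38 (SE 0.21) had an adjusted p of 0.19 (limma), and without Mutant_188, the only knockout array above wild type, it was -0.54 with an adjusted p of 0.044 (limma). The remaining 5 probes match other deposited Gja1 transcripts, which start or splice differently between 56097108 and 56107358. All 5 stayed near background in knockout hearts, and in wild type hearts 1 of them, at 255, was well above background on Wild Type_183 alone. Against spike-in RNA the brightest Gja1 probe turned to 0.38 (adjusted p = 0.13, limma), also not called.

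The bases just before the start of Gja1 are shown because this connexin carries most ventricular coupling; they come from RefSeq, build GRCm38.p6, which differs from the build of the probe coordinates. RefSeq windows were found for 4 of the 6 members. Capitals mark matches to any of 6 motifs, sought on both strands: TGANTCA of AP-1 factors, GGGCGG of the GC box, GGTGTNA of T-box factors, CAAGTG of NKX2-5, GATAAG of GATA factors and TATAAA.
Gja1 upstream window, chr10:56377050-56377299, plus strand: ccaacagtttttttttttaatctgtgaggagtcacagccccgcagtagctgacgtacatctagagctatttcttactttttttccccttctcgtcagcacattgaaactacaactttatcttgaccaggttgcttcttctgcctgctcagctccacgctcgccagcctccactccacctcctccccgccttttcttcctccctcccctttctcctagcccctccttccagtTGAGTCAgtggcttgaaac
The only match, 19 bases before the start, is to the AP-1 motif, which 6.75% of all 32851 windows of this length hold. It does not overlap another match and says nothing about binding in these hearts.

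Gja1 was set against the muscle genes of the same arrays. Of 19 ventricular cardiomyocyte markers, 14 fell and 0 rose, with a median log2 fold change of -0.79, beside -0.12 over all genes; Ckm, muscle creatine kinase, fell by 4.34 and Mybpc3, a thick filament protein, fell by 2.47 and Atp2a2, which returns calcium to its store between beats, by 2.19. Of all genes 16.1% were called higher and 25.4% lower, and the marker counts were not tested against these shares. Against spike-in RNA and with quantile normalization 9 of the 19 fell and 1 rose. With normexp and quantile normalization, or with array weights, 1 was also called higher. Without Mutant_182, Mutant_187 and Wild Type_181, the arrays high in atrial RNA, 9 were called lower. The summed relative signal of these markers was 4084 to 5465 in knockout arrays and 9603 to 10316 in wild type arrays. The log2 value of Gja1 minus the mean of the markers within each array was higher by 1.10 in knockout, at -5.46 to -4.90 in knockout arrays and -6.34 to -6.02 in wild type arrays, with no overlap. The exact two-sided permutation test over the 35 splits of the arrays gave p = 0.0286, the smallest it can give. The adjusted p was 0.0667 over the 7 such relations examined, so the difference did not pass after adjustment. A fully separated relation can pass this adjustment only if most of the 7 are fully separated, so not passing says nothing about its size. Gja1 itself was at -0.18 and not called, so the higher difference reflects the lower markers. The marker list was chosen with earlier results of these data known, so the permutation p is a description and cannot show a change of Gja1. In these bulk samples fewer cells of a type and less RNA per cell cannot be told apart.

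Gja3 encodes Cx46, best known as a channel of lens fibre cells, and its RNA was the only one of the 6 to fall. The brighter probe (chr14:57653539-57653598, at 2394) had a relative signal of 1.32, 1.28, 1.02 and 1.47 in Mutant_175, Mutant_182, Mutant_187 and Mutant_188, against 2.34 in Wild Type_181, 2.47 in Wild Type_183 and 2.3 in Wild Type_189. Every knockout array lay below every wild type array, and the log2 fold change was -0.91 (SE 0.15, adjusted p = 0.0025, limma). The dimmer probe (chr14:57654750-57654809, at 1183) had 0.288, 0.283, 0.187 and 0.257 in knockout arrays against 0.504, 0.538 and 0.574 in wild type, and fell by 1.10 (SE 0.17, adjusted p = 0.0023, limma). Both probes were lowest in Mutant_187. The fall is one relative to other transcripts: against spike-in RNA the probes gave -0.35 (adjusted p = 0.15, limma) and -0.54 (adjusted p = 0.072, limma) and neither was called.

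Gja3 has a pair of listed starts, and the window before the outer one is shown as that of the member that fell.
Gja3 upstream window, chr14:57058031-57058280, minus strand: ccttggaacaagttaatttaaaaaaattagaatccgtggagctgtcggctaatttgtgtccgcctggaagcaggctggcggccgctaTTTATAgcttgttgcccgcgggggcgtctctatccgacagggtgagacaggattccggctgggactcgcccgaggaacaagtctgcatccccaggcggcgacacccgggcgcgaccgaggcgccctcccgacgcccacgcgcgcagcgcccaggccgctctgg
It holds 1 match, to the TATAAA motif on the opposite strand, starting 163 bases before the gene's start; 12.4% of all windows hold that motif. The window before the other start had 0 matches to any of the 6 motifs and a GC content of 76%.

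The vascular connexin Gja4 (Cx37) rose by a small and even amount. Its single probe (chr4:126988848-126988907, at 1442) had a relative signal of 4.0, 3.94, 4.03 and 3.73 in Mutant_175, Mutant_182, Mutant_187 and Mutant_188, against 3.0 in Wild Type_181, 2.89 in Wild Type_183 and 2.62 in Wild Type_189. The knockout arrays lay within a narrow band above all wild type arrays, at 3.93 ± 0.135 (SD, n = 4) against 2.84 ± 0.196 (SD, n = 3). The log2 fold change was 0.47 (SE 0.11, adjusted p = 0.011, limma), or 1.39-fold. Without Wild Type_189, the lowest array, it was 0.42 and no longer called (adjusted p = 0.060, limma), without the 3 arrays high in atrial RNA it was 0.49 and not called (adjusted p = 0.098, limma), and against spike-in RNA it was 1.03 (adjusted p = 0.0044, limma). The window before its start is shown as that of the member that rose.
Gja4 upstream window, chr4:127314040-127314289, minus strand: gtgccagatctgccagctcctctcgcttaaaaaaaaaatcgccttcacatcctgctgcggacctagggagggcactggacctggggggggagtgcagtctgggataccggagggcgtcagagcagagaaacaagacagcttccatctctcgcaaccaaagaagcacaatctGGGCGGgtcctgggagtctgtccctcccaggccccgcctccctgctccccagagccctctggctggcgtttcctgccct
It holds 1 match, to the GC box, 79 bases before the start, a motif in 32.7% of all windows.

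Gja5 encodes Cx40, shared by atrial muscle, the fast conduction system and arterial endothelium. Its brightest probe (chr3:96857349-96857408, at 2914) had a relative signal of 1.67, 1.61, 2.83 and 1.91 in Mutant_175, Mutant_182, Mutant_187 and Mutant_188, against 0.797 in Wild Type_181, 1.48 in Wild Type_183 and 1.54 in Wild Type_189. All knockout arrays were above all wild type arrays, but the gap was narrow and both groups were uneven, with Mutant_187 high and Wild Type_181 low. The log2 fold change of 0.68 (SE 0.29, adjusted p = 0.10, limma) was not called; without Wild Type_181 it was 0.37, without Mutant_187 0.50 and without all 3 arrays high in atrial RNA, which include both, 0.24 (adjusted p = 0.33, limma). Against spike-in RNA it was 1.24 and called (adjusted p = 0.0083, limma).

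The other Gja5 probes were much dimmer and did not follow it. The probe at 116, which joins stretches of chromosome 3 between 96841677 and 96854553 in another transcript form, had 0.0931, 0.0746, 0.0772 and 0.0898 in knockout arrays against 0.0869, 0.109 and 0.0993 in wild type (log2 fold change -0.23, SE 0.14, adjusted p = 0.22, limma). The probe at 3611 (chr3:96881280-96881339) was detected above background on 1 of 4 knockout and 2 of 3 wild type arrays and gave -0.08 (adjusted p = 0.86, limma). The 250 bases before the Gja5 start held 1 GC box match, 17 bases before the start, and 0 matches to the other motifs.

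Both endothelial connexins were set against markers of the endothelium. Over all genes 16.1% were called higher and 25.4% lower on the main scaling, and the marker counts here and below were not tested against these shares. Of 15 pan-endothelial markers 0 rose and 5 fell, with a median log2 fold change of -0.23; Robo4, an endothelial guidance receptor, fell by 1.03, Erg, an endothelial transcription factor, by 0.72 and the receptor kinase Tie1 by 0.54. Against spike-in RNA 0 fell and 2 rose, with Robo4 at -0.47, Erg at -0.16 and Tie1 at 0.02. The count lower was 2 without Wild Type_183, where Erg was also lost, and 3 without Wild Type_181, Wild Type_189 or Mutant_188. Without the 3 arrays high in atrial RNA it was 2, and Tie1 was not called (-0.61, adjusted p = 0.058, limma). Their summed relative signal was 140 to 195 in knockout arrays and 205 to 214 in wild type arrays. Within arrays, Gja4 minus the mean of these markers was higher by 0.78 in knockout and Gja5 minus the same mean by 0.99. Neither relation overlapped between the groups, and each had an exact permutation p of 0.0286 and 0.0667 after adjustment over the 7 relations. The limits stated for Gja1, of this adjustment and of a list chosen with earlier results known, hold for both. Gja4 itself was at 0.47 and Gja5 at 0.68 (not called), so part of each difference reflects the lower markers. Without the 3 arrays high in atrial RNA the differences were 0.78 for Gja4 and 0.53 for Gja5. Arterial endothelial markers had 2 of 11 higher and 0 lower, Fbln5, a fibulin of elastic fibres, at 1.53 and the netrin receptor Unc5b at 1.40 (1.03 and not called without those 3 arrays), and 7 higher against spike-in RNA, with a median of 0.23 and a summed relative signal of 46.2 to 55.8 in knockout arrays and 33.2 to 34.2 in wild type arrays. Of 8 atrial markers, which bear on Gja5, 2 passed the test as higher and 1 as lower, while Myl7, Myl4 and Sln overlapped between the groups (log2 fold changes of 1.01, 1.14 and -0.57, adjusted p = 0.79, 0.67 and 0.92, limma). The summed relative signal of the list, most of it Nppa, was 374 to 740 in knockout arrays and 166 to 344 in wild type arrays. Nppa, the atrial natriuretic peptide gene, which ventricles under stress also express, rose by 0.98, at 331.9 to 442.7 in knockout arrays and 159 to 228.6 in wild type arrays. Dkk3, a secreted Wnt pathway modulator, was at 2.31, and Stard10, a lipid transfer protein, at -0.71 (-0.15 against spike-in RNA). Without Wild Type_183, Wild Type_189 or Mutant_182 the Dkk3 call was lost and 1 atrial marker was higher. Without the 3 arrays high in atrial RNA Stard10 was not called (-0.64, adjusted p = 0.091, limma) and 0 atrial markers were lower. The part of these cell types in the Gja4 and Gja5 values was not tested.

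**Figure D2:**
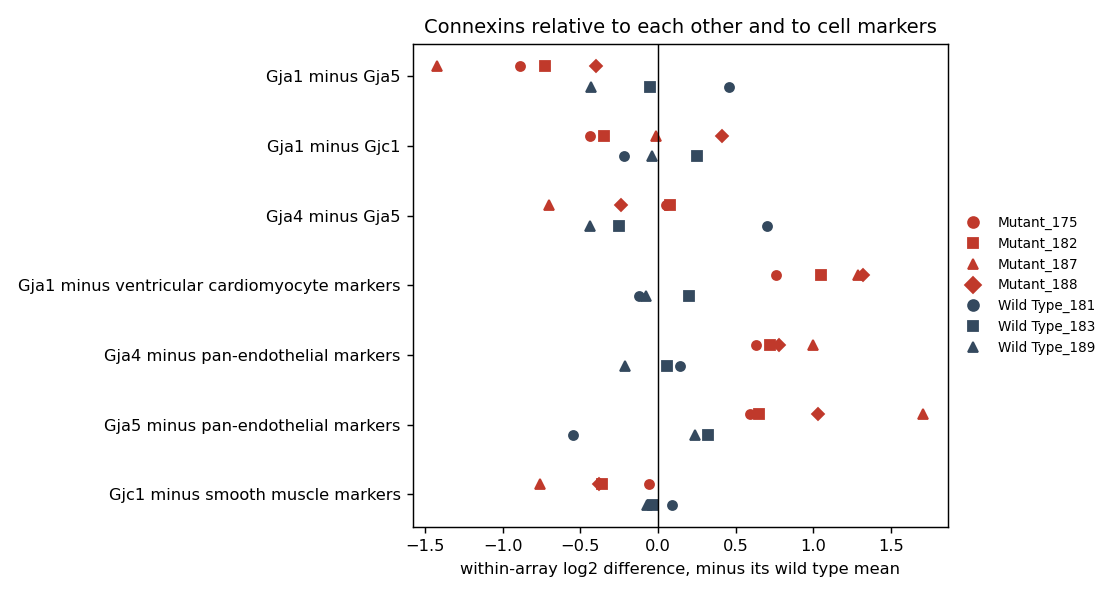
Within-array log2 differences between connexins, and between a connexin and the mean of a marker list, each shown relative to its wild type mean, with a symbol for each knockout (red) and wild type (dark) array. Gja1 against ventricular markers and Gja4 and Gja5 against pan-endothelial markers lie higher in all 4 knockout arrays, and the other 4 relations overlap.

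Gjc1 encodes Cx45, found in the nodes and in vascular smooth muscle, and was the steadiest of the 6. Its probe (chr11:102661053-102661112, at 2212) had a relative signal of 3.34, 3.4, 2.91 and 2.97 in Mutant_175, Mutant_182, Mutant_187 and Mutant_188, against 3.48 in Wild Type_181, 3.31 in Wild Type_183 and 3.22 in Wild Type_189. The groups overlap, and the log2 fold change of -0.08 (SE 0.11, adjusted p = 0.59, limma) had a 95% interval of -0.35 to 0.18. Under quantile normalization its sign turned, to 0.01, and against spike-in RNA it was 0.47 (adjusted p = 0.10, limma). Of 10 smooth muscle markers 2 rose and 2 fell, with Acta2, smooth muscle actin, at 3.44, Synpo2, an actin-binding protein, at 0.50 and Smtn, smoothelin, at -1.52; against spike-in RNA 5 were higher and 1 lower. Their summed relative signal was 748 to 850 in knockout arrays and 345 to 438 in wild type arrays, a gap mostly of Acta2, at 380.8 to 465.3 in knockout arrays and 33.4 to 44.8 in wild type arrays, while Actg2, another smooth muscle actin, overlapped. Without any single wild type array the Synpo2 call was lost and 1 marker was higher, and 1 was lower without any single array other than Mutant_187. Without the 3 arrays high in atrial RNA Synpo2 was not called (0.54, adjusted p = 0.12, limma), with 1 marker higher and 1 lower. Gjc1 minus the mean of these markers was lower by 0.38 in knockout, at -1.78 to -1.08 in knockout arrays and -1.09 to -0.93 in wild type arrays, which overlap (exact permutation p = 0.0857, adjusted p = 0.12). The conduction system, where Gjc1, Gja5 and Gjd3 are known to act, had 0 of 10 tested markers higher and 3 lower, among them Hcn4, the pacemaker channel, by -1.28 and Cacna1g, a T-type calcium channel, by -2.46; their summed relative signal was 12.3 to 14.8 in knockout arrays and 15.6 to 16.7 in wild type arrays. Against spike-in RNA 4 of the 10 were higher and 2 lower, with array weights and without Mutant_175 and Mutant_187 3 were higher, and without Mutant_175 2.

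Gjd3 encodes Cx30.2, which in the mouse slows conduction through the atrioventricular node, and it split the knockout arrays. Its probe reads as coding sequence, since a reading frame of it holds the cysteine spacing of the second extracellular loop, which takes part in docking. It is shown for that reason, with the 3 cysteine codons in capitals.
Gjd3 probe, chr11:98843770-98843829 of mm9, minus strand: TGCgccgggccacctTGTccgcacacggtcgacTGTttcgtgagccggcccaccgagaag
The relative signal was 0.346, 0.948, 0.804 and 1.3 in Mutant_175, Mutant_182, Mutant_187 and Mutant_188, against 0.493 in Wild Type_181, 0.572 in Wild Type_183 and 0.67 in Wild Type_189. Mutant_182, Mutant_187 and Mutant_188 were above every wild type array, while Mutant_175 was below all of them. The log2 fold change over all arrays was 0.41 (SE 0.41, 95% interval -0.55 to 1.38, adjusted p = 0.46, limma). Without Mutant_175 it was 0.80 and called higher (adjusted p = 0.020, limma), without Mutant_188 it was 0.16 (adjusted p = 0.77, limma) and without the 3 arrays high in atrial RNA 0.11 (adjusted p = 0.91, limma). Against spike-in RNA it was 0.97 (adjusted p = 0.064, limma).

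**Figure D3:**
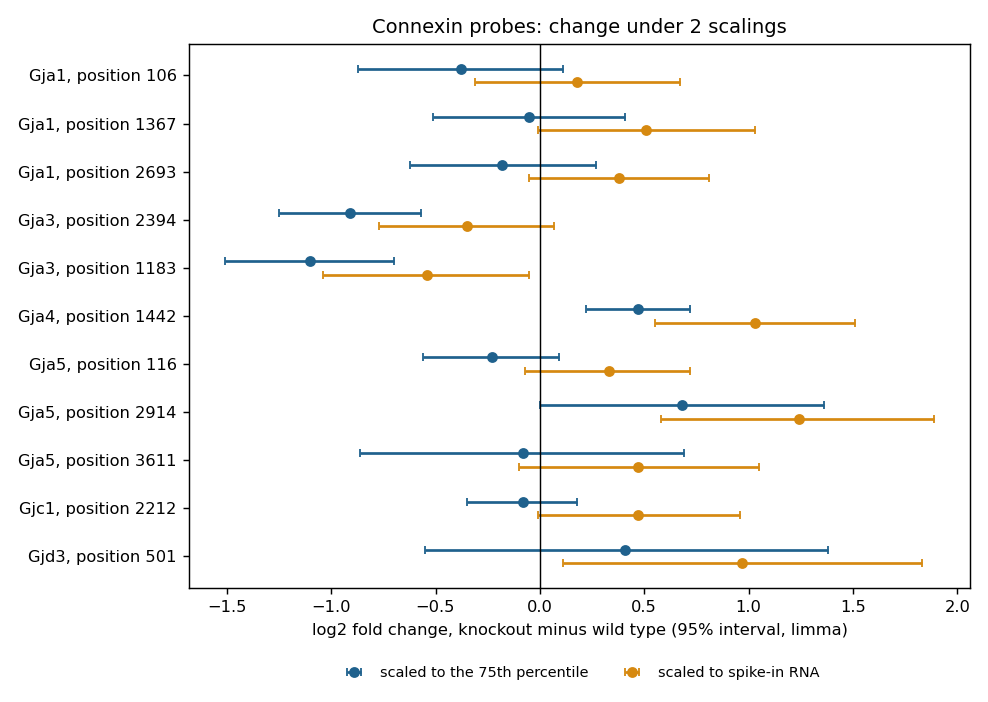
Log2 fold change of knockout over wild type for the 11 tested connexin probes, with 95% intervals from limma, scaled to the 75th percentile of each array (blue) and to spike-in RNA (orange). The spike-in scale moves every probe to the right; Gja4 lies above 0 on both scales and the interval of the brighter Gja3 probe reaches 0 on the spike-in scale.

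Within arrays, the pairs Gja1 and Gja5, Gja1 and Gjc1, and Gja4 and Gja5 were set against each other, and each pair overlapped between the groups. Pairs with Gja3, the member that fell, and the remaining pairs were not examined. Gja1 minus Gja5 was lower by 0.86 in knockout (0.51 to 1.53 in knockout arrays and 1.5 to 2.39 in wild type arrays, exact permutation p = 0.0857, adjusted p = 0.12). Gja1 minus Gjc1 differed by -0.09 and Gja4 minus Gja5 by -0.21, with adjusted p = 0.714 for both (exact permutation). By the same-shaped profile over the 7 arrays, measured as the root mean square difference of log2 values after each gene's mean was subtracted, the nearest of 15462 named genes were Ube2e2, Sap30bp and Snx4 for Gja4 (0.035 to 0.046) and Med31, Fam229b and Mogat1 for Gja3 (0.04 to 0.06). For Gja1 they were Rps18, Hspb7 and Krtap16-1 (0.1 to 0.103), for Gja5 L1td1, Litaf and Fosl2 (0.135 to 0.182), for Gjc1 Znfx1, Chd8 and Dnase1l1 (0.03 to 0.039) and for Gjd3 Scml2, Fmnl1 and Cd83 (0.205 to 0.225). The members' own root mean square spread was 0.24 for Gja1, 0.48 for Gja3, 0.24 for Gja4, 0.5 for Gja5, 0.09 for Gjc1 and 0.58 for Gjd3. Relative to their spread, the Gja1, Gja5, Gjc1 and Gjd3 profiles were matched less closely than the Gja3 and Gja4 profiles.

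The rest of the gap junction family was mostly below detection on these arrays. Of 14 other connexins 5 could be tested, and 7 had no probe well above background on any array. Of the 5, 3 rose and 0 fell. Gjb5, which encodes an epidermal connexin, was detected above background on 3 of 4 knockout arrays and 0 of 3 wild type arrays. Its unscaled signal was 35.5, 535.6, 524.7 and 155.1 in Mutant_175, Mutant_182, Mutant_187 and Mutant_188, against 11.1 in Wild Type_181, 5.8 in Wild Type_183 and 6.52 in Wild Type_189. Every knockout array was brighter than every wild type array, and Mutant_175 was the knockout array on which the probe did not reach detection. Gjb5 was at least 7.32-fold higher (adjusted p = 0.0066, limma), where the wild type level was taken as the detection floor of each array, its dimmest probe counted as well above background, unless the connexin itself was brighter. This p belongs to the fit of the measured signals, those below detection included, and not to the bound, and the probe entered the test through the knockout arrays alone. Without the 3 arrays high in atrial RNA the fitted difference was not called (adjusted p = 0.056, limma), and 0 other connexins were called. Gjb1 (Cx32 of liver and myelin) at 0.10 and Gja10 at 0.24 were not called.

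Pannexins form channels of a similar fold that open to the outside of the cell and release ATP. Panx1 rose more than any of the 6 members: its brightest probe had a relative signal of 2.22, 3.94, 6.73 and 4.65 in Mutant_175, Mutant_182, Mutant_187 and Mutant_188, against 0.641, 0.728 and 0.705 in wild type. The log2 fold change was 2.56 (SE 0.34, adjusted p = 0.0010, limma), with no overlap of the groups. A dimmer Panx1 probe, detected on 3 of 4 knockout and 0 of 3 wild type arrays, was at least 1.73-fold higher. This probe entered the test through the knockout arrays alone, and Mutant_175 did not reach detection. The other dimmer probe, on another transcript, gave -0.48 and was not called (adjusted p = 0.52, limma). Panx2 was not called, at -0.24, and Panx3 was not well above background on any array.

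**Figure D4:**
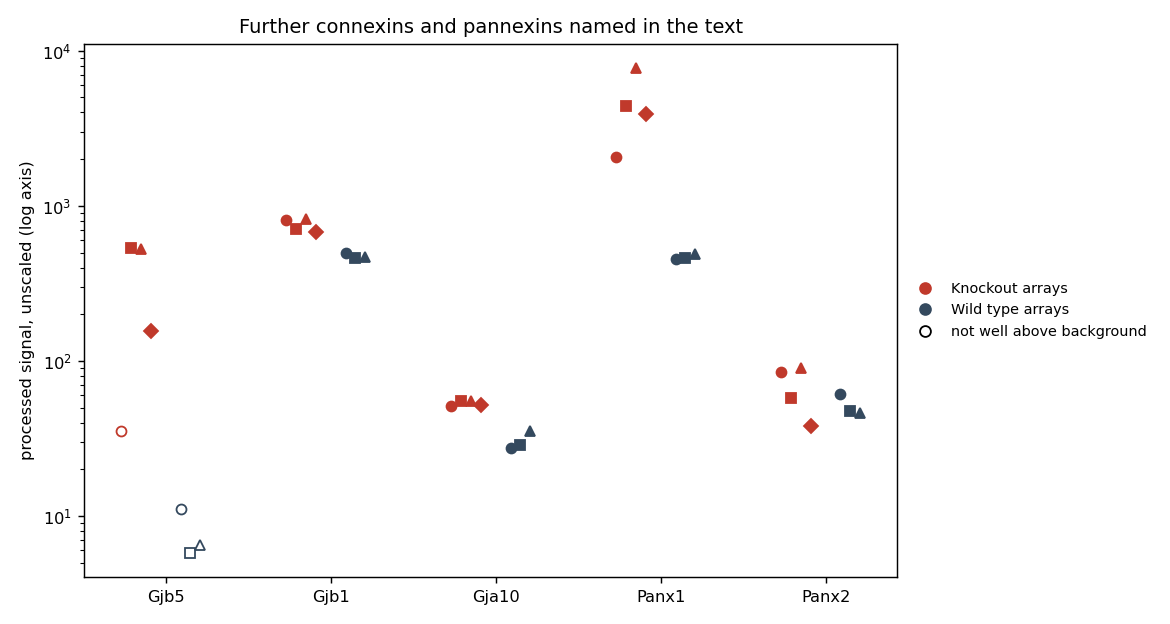
Processed signal, not scaled between arrays, on a log axis for the brightest probe of Gjb5, Gjb1, Gja10, Panx1 and Panx2, knockout arrays (red) left of wild type arrays (dark), open symbols where the signal was not well above background. Gjb5 is open on all 3 wild type arrays and on Mutant_175, and Panx1 lies higher on all 4 knockout arrays.

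Genes of proteins that hold gap junctions in place or remove them were called no more often than the array. Of 24 connexin partners and turnover factors 4 rose and 4 fell, where 16.1% of all genes were called higher and 25.4% lower, with a median of -0.12, the same as over all genes; without Mutant_175 7 fell, without Mutant_188 2, without the 3 arrays high in atrial RNA 2, and without Wild Type_183 or Wild Type_189 1. Xirp1, an actin-binding protein of the intercalated disc, rose by 2.57 (SE 0.14, adjusted p = 3.2e-05, limma) and Dbn1, drebrin, an actin-binding protein that associates with Cx43, by 2.12. Among 19 tested regulators of cardiac connexin genes, 6 rose and 2 fell, with a median of 0.35. Id2, an inhibitor of helix-loop-helix factors that serves in the ventricular conduction system, rose by 3.59 and Tbx2, a repressor of working-muscle genes in the nodes, by 0.79 (not called without the 3 arrays high in atrial RNA), while Hopx, a homeodomain cofactor that lowers Cx40 in the mouse conduction system when lost, fell by 2.70. These lists were chosen with earlier results of these data known, and their counts are descriptions.

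Markers of further cell types were counted in the same way, beside 16.1% of all genes called higher and 25.4% lower. Calls in the fibroblast and macrophage lists were all higher, and those in the pericyte list went both ways. Of 13 fibroblast markers 9 rose and 0 fell, with a summed relative signal of 1009 to 1194 in knockout arrays and 641 to 684 in wild type arrays, and of 12 macrophage markers 7 rose and 0 fell, at 153 to 266 in knockout arrays and 149 to 158 in wild type arrays, which overlap through Mutant_175. The other 5 macrophage markers were not called. Col1a2, a collagen chain, was at 2.81, the matrix proteins Postn and Mfap5 at 4.37 and 3.07, the macrophage receptors Mrc1 and Cd163 at 1.41 and 0.82 and the complement gene C1qb at 1.16. Without Mutant_175 11 macrophage markers were higher. Pericyte markers had 2 of 8 higher and 3 lower, at 51.1 to 68.6 in knockout arrays and 94.8 to 101.6 in wild type arrays, with the channel subunit Abcc9 at -2.05, the proteoglycan Cspg4 at 1.24 and Vtn, vitronectin, at -1.56; 1 was higher without Wild Type_183 or Wild Type_189. Fibroblasts and macrophages also make Cx43, and their part in the Gja1 value was not tested.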

How the data were processed

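The deposited scanner files hold 1-colour (Cy3) intensity from Agilent Feature Extraction, per the file headers; the processed signal is background-corrected within the array and not normalized between arrays. The authors also deposited a value table of intensity, used as an alternative; 99.6% of its cells lay within 0.01 (log2) of the scanner value, with column medians of 65.5, 83.3, 80.9 and 61.1 in knockout and 47.7, 45.9 and 50.8 in wild type, so it is linear, not centred, and not scaled between arrays. Other columns used, per the file headers, are flags (well above background, saturated, outlier), names and mm9 probe positions.

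Of 59305 non-control spots per array, 82 to 146 outlier spots were left out, 0 were saturated and 58.1% to 63.6% were well above background. Spots of a probe were averaged, log2 taken and the array's 75th percentile over all probes subtracted, which removes any difference in total messenger RNA. The 34481 probes with that flag on 3 or more arrays were fitted together with limma 3.58.1 (R 4.3.3), with genotype as the only term; p-values were adjusted by Benjamini-Hochberg over these probes, with a threshold of 0.05. A gene was counted by its tested probe with the highest mean. Probes were named by accession through a GRCm38.p6 table (32994 matched), and otherwise by the file. Figures used matplotlib 3.10.9. All arrays share a slide and a scan, no replicate number is shared between groups, and the number of arrays limits the precision. Single values were compared by exact two-sided permutation.

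Members and lists were chosen with earlier results of these data known. Named genes are the members, up to 3 genes with the smallest p called in each list, or up to 2 where none was called, and for each member the 3 genes with the nearest profile. A few genes it picks are not given here. Gjb1, Gja10, Panx2 and Panx3 were named after their values were seen. Alternatives were other scalings (quantile, median, the same percentile over universally detected probes, those well above background on every array, 7 spike-in probes), normexp with offset 50, the authors' table, other filters, a trended robust prior, array weights, a fit over genes, leaving out arrays, and leaving out 3 arrays high in atrial RNA, added after seeing the data.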

Additional observations from a re-analysis of the deposited data

Results flagged for a closer look

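Over the 4 knockout arrays, 3 of 54 probes and relations examined had a highest or lowest array whose gap to its neighbour exceeded Dixon's 95% critical value as a share of the group's range, or 5.56%, where chance flags about 5%. None of the 3 was a connexin. Synpo2, a smooth muscle marker, had a relative signal of 60.9 in Mutant_175 and 46.8 to 47.4 in the other knockout arrays, a gap of 0.947 of the range. Postn, a fibroblast marker, had 29.2 in Mutant_175 and 50.1 to 52.9 in the others, a gap of 0.907. Abcc9, a pericyte marker, had 4.38 in Mutant_187 and 6.21 to 6.56 in the others, a gap of 0.863.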

How the results depend on the processing

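Of 932 values of connexin probes and named genes at alternative settings, 875 kept the direction and the side of the threshold. Against spike-in RNA the differences were 0.38 for Gja1 (and 0.18 and 0.51 for its other probes), -0.35 for Gja3, 1.24 for Gja5 (0.33 and 0.47 for its other probes), 0.47 for Gjc1, 0.97 for Gjd3 (not called) and 0.02 for Tie1, an endothelial marker called lower otherwise. Uncalled values near 0 turned sign: Gjc1 to 0.01 with quantile normalization, 0.03 with the percentile over universally detected probes and 0.02 with normexp; the Gja1 probe at 1367 to 0.03, 0.07 and 0.05 under the same settings, 0.11 with array weights and 0.22 without Mutant_175 and Mutant_187; the Gja5 probe at 3611 to 0.03 with that percentile and 0.04 without those arrays, where Gjd3 was 0.95 and called and Gja1 minus Gjc1 was 0.03.

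Without Mutant_182, Mutant_187 and Wild Type_181, the arrays high in atrial RNA, an alternative chosen after seeing the data, 2812 probes (1820 genes) were called higher and 3901 (2670) lower, with 4 arrays left. Gja4 was 0.49 and not called, Gja3 -0.78 and still called, Gja1 minus Gja5 -0.41 and Gja4 minus Gja5 0.25. In the lists, 0 other connexins were called higher and 2 partners lower, and 1 pericyte marker was higher. The calls of Tie1, Stard10 and Synpo2 were lost.

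Leaving out each array in turn gave -0.32 to -0.06 for Gja1, -0.99 to -0.81 for Gja3, 0.42 to 0.51 for Gja4, 0.37 to 0.84 for Gja5, -0.12 to -0.05 for Gjc1 and 0.16 to 0.80 for Gjd3. It gave -0.16 to 0.10 for the Gja1 probe at 1367, -0.42 to 0.17 for the Gja5 probe at 3611, -0.26 to 0.03 for Gja1 minus Gjc1, -0.43 to 0.14 for Gja4 minus Gja5, 1.03 to 1.22 for Gja1 against ventricular markers and 0.68 to 0.86 and 0.71 to 1.15 for Gja4 and Gja5 against pan-endothelial markers. Partners called lower numbered 1 to 7, the lowest without Wild Type_183 or Wild Type_189, 2 without Mutant_188 and 7 without Mutant_175.

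Spike-in scaling called 12860 probes (8249 genes) higher and 2364 probes (1687 genes) lower, against 5690 (3689) and 8282 (5846). Of the calls over genes, 38.7% were higher with the main scaling, 49.5% with the percentile over universally detected probes and 83.0% with spike-in RNA. Spike-in scaling called 5 other connexins, 8 partners and 14 regulators higher and 1 partner and 1 regulator lower. The filter over all 7 arrays left 1 other connexin higher. Partners higher numbered 7 with the percentile over universally detected probes, with array weights and without Mutant_175 and Mutant_187, and partners lower 2 with that percentile and without the filter. Array weights called 10 regulators higher. The cause of these shifts was not tested. No paired analysis was possible because no replicate number is shared between groups. Near background, as for Gjb5, the size of a fold is uncertain.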
